A study of Mus musculus with 3 samples.

Results

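Potassium channel genes, whose mouse symbols begin with Kcn, were examined in astrocytes made in culture from mouse embryonic stem cells. Members were all genes with a platform symbol of Kcn followed by a letter or digit, taken from probe sets annotated to 1 gene only. They numbered 84 of the 18194 genes that have such a probe set. Total RNA of 3 samples, all labelled wild type and all in 1 group, was measured on 1-colour Affymetrix Mouse Genome 430 2.0 arrays. The cells had passed through embryoid bodies (4 days), selection in a defined medium (5 to 7 days), and were then grown as neural precursors with FGF2 and an epidermal growth factor (named EGF2 in the labels). At 18 passages these factors were withdrawn and 5% fetal bovine serum was added for 5 days. The labels give no strain, and they do not say that the samples came from separate cultures, so p-values cover no more than the variation among these 3 arrays, some or all of which may be technical.

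Potassium channels let potassium ions cross the membrane and draw its voltage towards the potassium equilibrium. In the brain, mature astrocytes are known for a strongly negative resting potential that rests on inward rectifier and tandem-pore domain channels, and for taking up the potassium that active neurons release. Most voltage-gated and calcium-activated members are better known from neurons and muscle, where they end the action potential and set firing patterns.

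Every level below is a log2 signal of a gene's brightest probe set, as mean ± SD (n = 3) unless the values of replicates 1, 2 and 3 are given. Background was set by 78 chemosensory receptor genes (of the olfactory, vomeronasal, taste and trace-amine families), which neural cells are not known to express widely. On each array the limit was the 95th percentile of these genes, or 3.99, 4.10 and 4.07 on replicates 1, 2 and 3, with a mean of 4.05. A gene was called above background when its signal minus the limit passed a one-sided limma test (Benjamini-Hochberg adjusted p below 0.05 over all 18116 genes tested). A gene that did not pass was not shown to be absent. Probe sets differ in brightness, so the level of one gene is not set against that of another. In bulk samples, fewer cells that express a gene and less RNA per cell cannot be told apart.

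The labelled cell type was checked on marker lists. None of these lists was for neural precursors, so any precursors that remained were not looked for. All 10 astrocyte markers were above background, and so were 5 of 10 neuronal, 2 of 7 oligodendrocyte, 1 of 6 microglial, 1 of 5 endothelial, and 4 of 7 pericyte and smooth muscle markers. Apart from the astrocyte list, no marker list exceeded the 58.3% of all genes tested, with 50% for neuronal and 57.1% for pericyte and smooth muscle markers. The summed signal of the list, as log2, ranged over the arrays from 14.53 to 14.80 for astrocyte, 11.02 to 11.34 for neuronal and 10.17 to 10.48 for pericyte and smooth muscle markers. It ranged from 7.00 to 7.01 for oligodendrocyte, 6.21 to 6.37 for microglial and 6.30 to 7.52 for endothelial markers. Such a sum can rest largely on 1 gene, and the lists differ in length, so the sums do not give amounts of cell types. On replicate 1, for example, Map2 was at 10.74 and the neuronal sum at 11.02. Among the neuronal markers, Snap25, Stmn2, Nefl and Slc17a6 were at 2.02 ± 0.50, 1.93 ± 0.75, 2.10 ± 0.26 and 2.25 ± 0.38, below the limit. Map2, Syt1, Rbfox3, Syn1 and Tubb3 passed, at 10.91 ± 0.16, 7.24 ± 0.12, 6.66 ± 0.30, 6.17 ± 0.27 and 5.83 ± 0.65, and Gad1 was at 4.10 ± 0.24 and did not. Of the pericyte and smooth muscle markers, Acta2, Tagln, Cnn1 and Rgs5 passed, at 9.83 ± 0.21, 7.71 ± 0.14, 5.83 ± 0.04 and 5.03 ± 0.19. Pdgfrb, Myh11 and Des were at 1.26 ± 1.66, 2.58 ± 1.86 and 4.14 ± 0.44 and did not. The part of other cell types in the channel signals was not tested.

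Most potassium channel genes were not above background. Of the 84 members, 21 passed (25%), against 58.3% of all genes tested, and 45 members lay below the limit on every array. The median member was 0.86 log2 units below the limit (a difference of -0.86), whereas the median of all genes was 1.76 above it. Every class had members on both sides. The test called 5 of 15 inward rectifier genes (Kcnj), 3 of 12 tandem-pore genes (Kcnk), 8 of 31 voltage-gated alpha subunit genes, 1 of 8 calcium- or sodium-activated alpha subunit genes, 3 of 15 auxiliary subunit genes and 1 of 3 noncoding RNA genes that carry a Kcn symbol. When each gene took the median over its probe sets instead, 15 members passed, against 50.6% of all genes. With the limit at the 90th percentile of the receptor genes 25 members passed, against 60.2%, and at the 99th 17 passed, against 55.4%. Without replicate 1, 2 or 3 the count was 17, 19 or 19, against 57.4%, 56.5% and 57.7% of all genes.

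**Figure D1:**
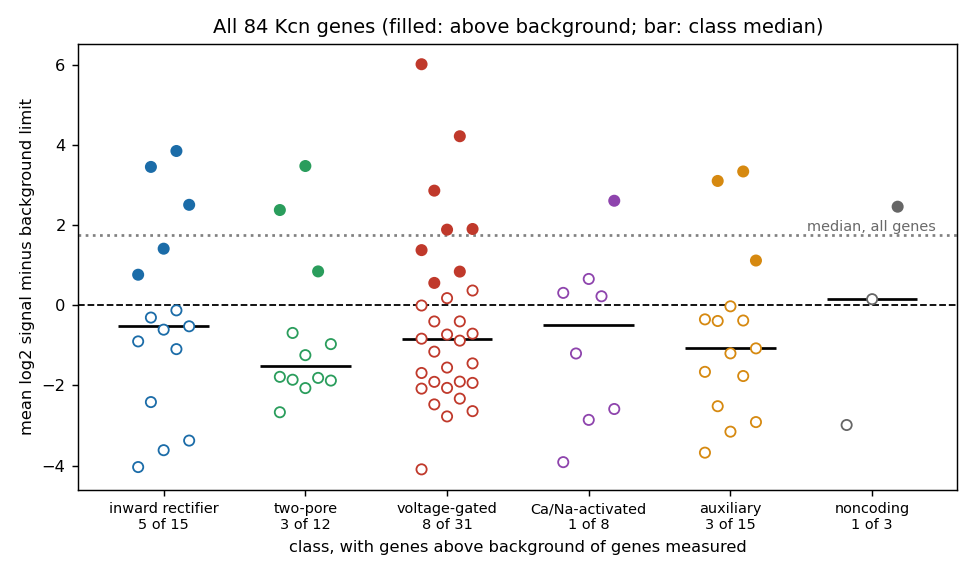
Mean log2 signal minus the background limit for each of the 84 members by class; each point is 1 gene, filled where it was above background, the bar is the class median, the dashed line is the limit and the dotted line the median of all genes tested. Class medians run from -1.51 for Kcnk to 0.15 for the 3 noncoding genes, all under the 1.76 of all genes, and filled points make up 1 to 8 genes of each class.

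Members with more probe sets had more chances to pass, and the members' share was lower than that of all genes at each number of probe sets. Of members with 1 probe set 8 of 38 were above background (21.1%, against 41.7% of all such genes). The shares were 5 of 25 with 2 probe sets (20%, against 67.7%), 1 of 9 with 3 (11.1%, against 79.4%) and 7 of 12 with 4 or more (58.3%, against 88.2%). Counted by probe set, 32 of 167 member probe sets were above background, against 52.2% of all 34871.

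The inward rectifiers (Kcnj) pass potassium into the cell more readily than out of it, and the 5 that were above background came from 3 of the family's 4 functional groups. In the potassium transport group 3 of 5 genes passed. Kcnj10, which encodes Kir4.1, the main inward rectifier of astrocytes, was at 5.85, 6.70 and 7.12 on the 3 arrays. Its lowest value, on replicate 1, still lay clear of the limit, and its mean was 2.50 ± 0.29 (SE) above it (adjusted p = 0.00151, limma). Kcnj16, which encodes Kir5.1, a subunit that joins Kir4.1 in mixed channels, was at 7.38, 7.44 and 7.69. Both of its probe sets passed, and the other one gave 6.79, 7.16 and 7.71. Kcnj13, which encodes Kir7.1 and is known from transporting epithelia such as the choroid plexus, was at 5.11, 4.93 and 4.41 on its only probe set. It lay close to the limit (0.76 above, adjusted p = 0.0231, limma), and the call was lost without replicate 1 (0.58, adjusted p = 0.0843) and without replicate 2 (0.73, adjusted p = 0.0921).

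Kcnj11, which encodes Kir6.2, the pore of the ATP-sensitive channel that links metabolism to membrane voltage, was at 7.81, 7.93 and 7.96. Its arrays were the closest together of all 21 members above background (SD 0.08), but it passed on 1 of its 2 probe sets, and the other one read 3.13, -0.71 and 3.87. With the median of its probe sets Kcnj11 was 0.97 above the limit and did not pass (adjusted p = 0.141, limma). Kcnj8, the other pore gene of this channel, was at 1.91, 3.61 and 3.35, below the limit on each array. Functional ATP-sensitive channels need a sulfonylurea receptor, and neither receptor gene passed, with Abcc8 at 4.16 ± 0.79 (3.30, 4.36 and 4.83) and Abcc9 at 1.55 ± 1.77.

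Among the G-protein gated channels, which slow neurons when transmitter receptors are active, 1 of 4 genes passed. Kcnj9, which encodes Kir3.3, was at 5.20, 5.21 and 5.98, on 2 of 4 probe sets, and at -0.12 from the limit with the median of its probe sets. Kcnj3 read 4.99, 1.95 and 4.84, so that replicate 2 stood apart from the others. It did not pass over the 3 arrays, but without replicate 2 it was 0.88 above the limit (adjusted p = 0.0333, limma). None of the 4 probe sets of Kcnj3 passed over the 3 arrays, and with their median it was at -1.83 from the limit. None of the 4 strong inward rectifier genes passed, and at an unadjusted p below 0.05 none did either. In this group Kcnj2, which encodes Kir2.1, was at -0.12, 2.38 and -0.23, and Kcnj4, Kcnj12 and Kcnj14 were at 3.44 ± 0.64, 3.53 ± 0.19 and 0.44 ± 0.26. The remaining members, whose means were below the limit, were Kcnj1, Kcnj5, Kcnj6 and Kcnj15, at 0.02 ± 0.76, 1.64 ± 1.18, 3.75 ± 0.35 and 3.15 ± 0.62.

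Genes next to each other on a chromosome did not share their calls throughout. In RefSeq's annotation of GRCm38.p6, 9 pairs of members follow each other with no protein-coding gene starting between them. Of these, 1 pair had both genes above background (Kcnj9 and Kcnj10), 2 pairs had 1 (Kcnj16 beside Kcnj2, and Kcna2 beside Kcna3), and 6 pairs had neither. Over all members 25% were above background, and no share over other adjacent genes was taken, so these counts are only described. The promoters of Kcnj10, Kcnj9 and Kcnj2 are shown because they come from these pairs and differ in CpG content, and that of Kcnd3 because its gene is treated at length below. Each sequence holds 250 bases before and 50 after the gene's start in RefSeq (GRCm38.p6), and CpG dinucleotides are in capitals. They lie at chr1:172340960-172341259 (+ strand, Kcnj10), chr1:172329273-172329572 (- strand, Kcnj9), chr11:111065914-111066213 (+ strand, Kcnj2) and chr3:105451640-105451939 (+ strand, Kcnd3).
Kcnj10: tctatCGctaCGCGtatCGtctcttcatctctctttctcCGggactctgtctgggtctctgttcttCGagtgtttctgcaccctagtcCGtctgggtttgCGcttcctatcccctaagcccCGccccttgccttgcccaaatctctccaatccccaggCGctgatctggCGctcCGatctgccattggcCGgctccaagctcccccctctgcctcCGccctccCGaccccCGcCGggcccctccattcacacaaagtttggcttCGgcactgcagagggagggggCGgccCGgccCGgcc
Kcnj9: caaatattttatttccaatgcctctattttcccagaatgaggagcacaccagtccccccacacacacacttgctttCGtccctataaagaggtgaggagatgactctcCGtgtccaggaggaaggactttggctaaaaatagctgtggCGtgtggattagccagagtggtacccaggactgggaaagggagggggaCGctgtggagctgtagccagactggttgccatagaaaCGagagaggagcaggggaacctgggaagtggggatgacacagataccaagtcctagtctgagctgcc
Kcnj2: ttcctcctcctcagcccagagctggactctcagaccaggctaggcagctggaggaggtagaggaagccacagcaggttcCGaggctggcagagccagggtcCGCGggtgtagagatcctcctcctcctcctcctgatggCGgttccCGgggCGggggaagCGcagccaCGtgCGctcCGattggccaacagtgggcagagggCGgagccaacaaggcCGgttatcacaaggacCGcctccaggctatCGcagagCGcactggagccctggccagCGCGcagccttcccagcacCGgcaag
Kcnd3: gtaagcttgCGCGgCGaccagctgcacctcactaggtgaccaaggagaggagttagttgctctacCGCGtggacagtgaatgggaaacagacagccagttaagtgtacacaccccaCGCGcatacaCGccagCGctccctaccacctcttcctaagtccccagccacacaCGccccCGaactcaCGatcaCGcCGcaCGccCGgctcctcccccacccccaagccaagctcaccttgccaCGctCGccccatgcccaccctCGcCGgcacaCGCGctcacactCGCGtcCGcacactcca
The windows of Kcnj10, Kcnj2 and Kcnd3 hold 21, 18 and 25 CpGs, and that of Kcnj9 holds 5. The Kcnj9 window was the one of the 4 with the letters TATAAA (searched on both strands), which 13.6% of all 32851 promoter windows hold, and the match lies outside the usual place of a TATA box, at position -168 from the start.

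Over all 14389 genes with a RefSeq promoter window, those with a CpG count at or above the median of 18 (taking the start richest in CpG) were above background in 81.9% of cases, and the others in 37.1%. Of 64 members with a window, 11 of 28 at or above that median passed (39.3%) and 7 of 36 below it (19.4%). On both sides of that median the members' share was below that of all genes, and Kcnj2 (18 CpGs) and Kcnj4 (41 CpGs) are examples at or above it that did not pass. The median CpG count was 20.5 in the 18 members above background and 12 in the 46 that were not, against 23 and 7 over all genes. A CpG count describes the sequence and not its methylation, which was not measured.

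**Figure D2:**
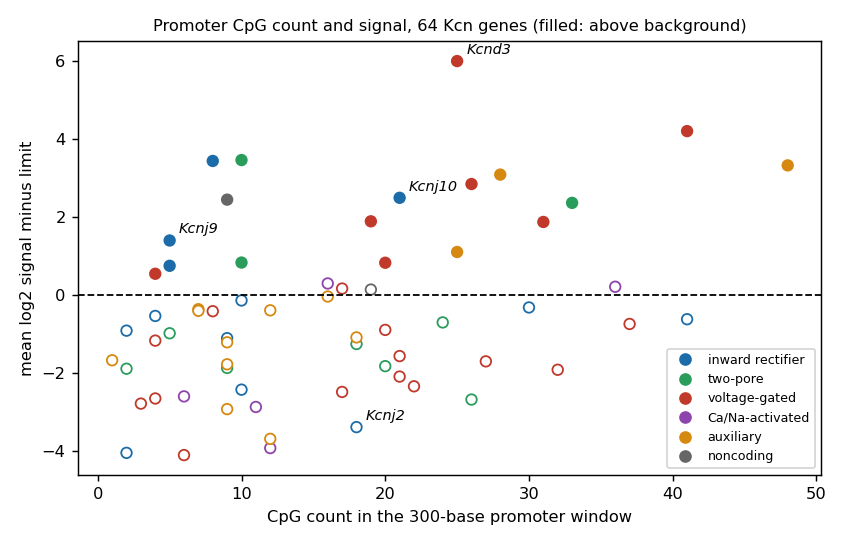
CpG count of the 300-base promoter window (x axis) and mean log2 signal minus the limit (y axis) for the 64 members with a window; filled points were above background and the dashed line is the limit. Filled and open points overlap over most of the CpG range, with Kcnj9 (5 CpGs) above the limit and Kcnj2 (18 CpGs) below it.

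Tandem-pore domain channels (Kcnk) carry leak currents that are open at rest, and 3 of 12 genes passed. Kcnk1, which encodes TWIK-1, a leak subunit known from astrocytes, was at 7.35, 7.55 and 7.67. Both of its probe sets passed, and the other one gave 5.84, 5.43 and 4.80. Kcnk2, which encodes TREK-1, a channel opened by stretch and lipids, was at 6.18, 6.42 and 6.68 on its only probe set (2.37 ± 0.15 (SE) above the limit, adjusted p = 0.000238, limma). Kcnk7, a relative of TWIK-1 that is not known to conduct by itself, was at 5.15, 4.68 and 4.85, on its only probe set (0.84 above the limit, adjusted p = 0.0100, limma).

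The other 9 tandem-pore genes were not above background, with means from 1.38 to 3.36. They were the third TWIK gene Kcnk6, the TREK relatives Kcnk4 and Kcnk10, the acid-sensitive TASK genes Kcnk3 and Kcnk15, the alkaline-activated TALK genes Kcnk5 and Kcnk16, and the THIK genes Kcnk12 and Kcnk13. Kcnk10, which encodes TREK-2, was at 0.77, 3.89 and 3.77, below the limit on each array. Kcnk3 was at 1.22, 0.93 and 4.65, so that replicate 3 alone lay above the limit.

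Of the 31 voltage-gated alpha subunit genes, 8 were above background, and 2 of the 3 Kcnd genes were among them. Kcnd genes encode Kv4 channels, which carry the fast inactivating A-type current. Kcnd3 (Kv4.3) was at 9.72, 10.06 and 10.41, with 3 of 4 probe sets above background. Its 4 probe sets differed widely, and their means ran from 3.34 to 10.06. Kcnd2 (Kv4.2) was at 6.76, 7.00 and 6.97, on 2 of 4 probe sets. The third member, Kcnd1 (Kv4.1), was at 4.16, 4.53 and 4.57, above the limit on every array but not called (0.37 above, adjusted p = 0.0576, limma).

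Kcnc1, which encodes Kv3.1, a channel that lets neurons fire fast, was at 7.96, 8.20 and 8.64. It passed on 3 of 4 probe sets, while Kcnc2 (-0.04 ± 0.93) and Kcnc4 (1.58 ± 0.48) of the same subfamily were below the limit on each array. Kcna2, which encodes Kv1.2, a channel of axons, was at 5.22, 6.35 and 6.25. It passed on 1 of 4 probe sets, and was at -0.37 from the limit with their median. Kcna7, the other Kcna gene called, was at 4.42, 4.97 and 4.43 (0.56 above the limit, adjusted p = 0.0309, limma) and was no longer called when any 1 replicate was left out (0.40 to 0.65). Among the 5 Kcna genes that did not pass, Kcna1 was at 4.10, 3.93 and 4.11, at the level of the limit, and Kcna4 was at 3.52, 2.81 and 3.18. Kcna3, Kcna5 and Kcna6 were at 3.32 ± 0.19, 1.41 ± 1.83 and 3.65 ± 0.14.

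The Kcnh genes encode the ether-a-go-go family, and 2 of 6 passed. Kcnh2, which encodes the ERG channel that repolarises the heart, was at 5.46, 6.02 and 6.39 on its only probe set. Kcnh3, of the ELK branch, was at 4.55, 5.82 and 5.92, on 2 of 4 probe sets, and missed the threshold without replicate 2 (1.20, adjusted p = 0.0538, limma). Kcnh1, Kcnh5, Kcnh7 and Kcnh8 did not pass, and Kcnh5 lay above the limit on 2 of 3 arrays. In the Kcnq subfamily, source of the M-current that restrains firing, Kcnq5 was at 5.31, 4.59 and 4.78, on 1 of 3 probe sets. Its call was lost without replicate 1 (0.60, adjusted p = 0.0531) and without replicate 3 (0.91, adjusted p = 0.0702). Kcnq1 was at 2.46, 4.41 and 4.07, and Kcnq3 at 1.99 ± 0.72.

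None of the 9 genes for electrically silent subunits (Kcnf1, Kcng1, Kcng2, Kcng4, Kcns1, Kcns2, Kcns3, Kcnv1 and Kcnv2) was above background, and none had an unadjusted p below 0.05 (limma). These subunits form no channel alone and change the behaviour of Kv2 channels. Their means ran from 1.28 to 3.34, and 1 value of 1 gene exceeded the limit, Kcnv2 on replicate 1 at 4.55.

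Of 8 genes for channels opened by calcium or sodium, 1 passed, Kcnn2. It encodes SK2, a small-conductance channel that follows calcium signals, and was at 6.62, 6.53 and 6.83 on its only probe set (2.61 ± 0.14 (SE) above the limit, adjusted p = 0.000149, limma). Kcnn1 (SK1) was at 4.26, 4.26 and 4.56, above the limit on each array without passing, and Kcnn3 (SK3) and Kcnn4 (the intermediate-conductance channel) were at 1.19 ± 0.49 and 1.46 ± 0.41. Kcnma1, the pore of the large-conductance BK channel, was at 3.91, 5.15 and 3.76. On this probe set replicate 2 alone exceeded the limit. The next brightest read 4.24, 3.10 and 5.10, above the limit on replicates 1 and 3, and none of the 5 probe sets of Kcnma1 passed. The sodium-activated channel gene Kcnt1 was at 4.38, 4.24 and 5.50, above the limit on each array but not called (adjusted p = 0.0968, limma). Kcnt2 and the sperm channel gene Kcnu1 were at 0.14 ± 2.77 and 2.85 ± 0.71.

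Auxiliary subunits do not form the pore but change its gating, its traffic to the membrane or its drug response, and 3 of 15 genes passed. Kcnmb4, the BK beta subunit best known from neurons, was at 7.34, 7.51 and 7.32 on its only probe set, while the BK pore gene Kcnma1 did not pass. Kcnmb1 and Kcnmb2 were at 2.39 ± 1.72 and 2.85 ± 1.80. Kcnip3, which encodes KChIP3, a calcium sensor that binds Kv4 channels and is also known as the transcriptional repressor DREAM, was at 7.20, 6.88 and 7.38. Both of its probe sets passed, the other one at 6.81, 6.01 and 5.56. Kcnip1, Kcnip2 and Kcnip4 did not pass, at 4.03 ± 0.52, 2.98 ± 0.88 and 3.66 ± 0.06. Kcnab2, which encodes a beta subunit of Kv1 channels, was at 4.92, 4.69 and 5.90, on 1 of 2 probe sets. It missed the threshold without replicate 1 (1.21, adjusted p = 0.0583, limma) and was at -0.40 from the limit with the median of its probe sets. Kcnab1 and Kcnab3 were at 3.70 ± 0.75 and 0.90 ± 0.71. None of the 5 Kcne genes (Kcne1, Kcne1l, Kcne2, Kcne3 and Kcne4), which encode small single-span partners of Kcnq and other channels, passed or had an unadjusted p below 0.05 (limma), with means from 0.38 to 3.67.

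Noncoding RNA genes made up 3 of the 84 members by symbol and encode no channel. Kcnq1ot1, an imprinted antisense RNA from within Kcnq1, was at 6.43, 7.00 and 6.11, on 2 of 6 probe sets. The second of these read 6.56, 7.21 and 5.54, the remaining 4 had means from -0.73 to 3.20, and the median of all 6 was at -0.89 from the limit. Kcnmb4os2 was at 4.09, 4.28 and 4.24, above the limit on each array without passing, and Kcnmb4os1 was at 1.07 ± 1.39. Without these genes, 20 of 81 members were above background (24.7%).

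**Figure D3:**
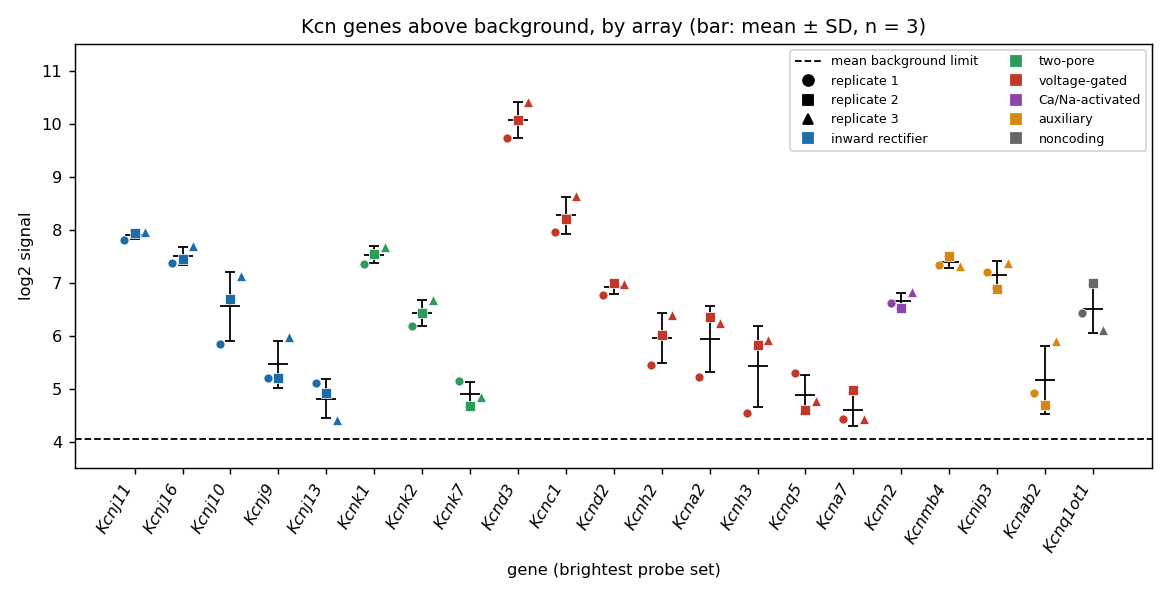
Log2 signal of the brightest probe set on each array for the 21 members above background, with the mean ± SD (n = 3) and the mean limit of 4.05 (dashed); colours give the class and symbols the replicate. Every point lies above the limit, and Kcna7, Kcnj13, Kcnq5 and Kcnk7 lie nearest to it.

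The 21 members above background were not all supported by each of their probe sets. Of these genes, 8 had 1 probe set and 13 had several. On all of several probe sets 3 passed (Kcnj16, Kcnk1 and Kcnip3), 4 passed on 1 of several (Kcnj11, Kcna2, Kcnq5 and Kcnab2), and the other 6 lay between. Probe sets of 1 gene can target different transcript ends, and the deposited values do not tell which end was measured.

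**Figure D4:**
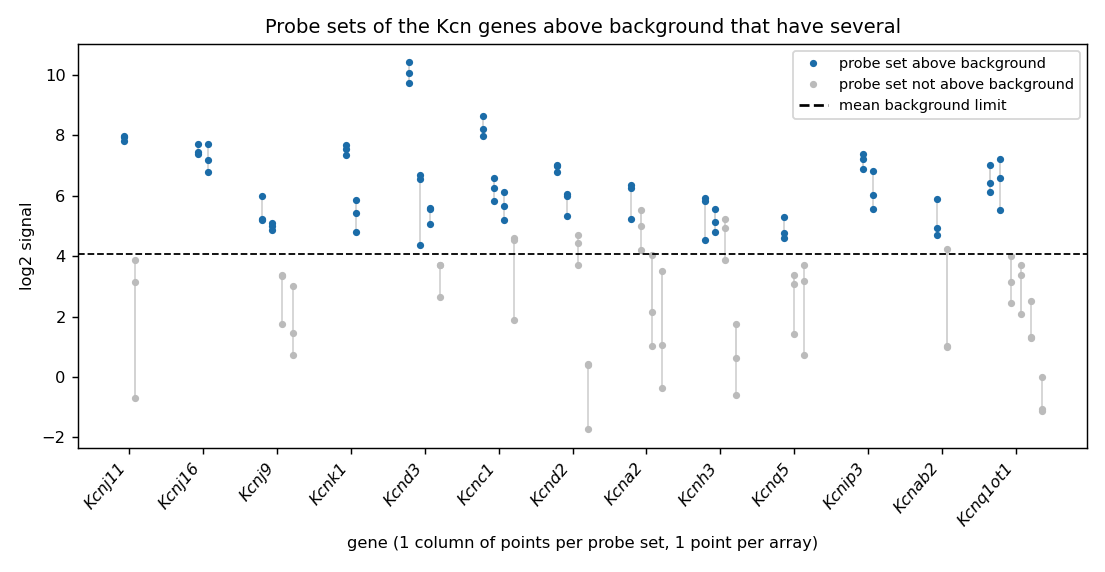
Log2 signal of every probe set of the 13 members above background that have several; each column of 3 points is 1 probe set on the 3 arrays, blue where it was above background, and the dashed line is the mean limit. All points of Kcnj16, Kcnk1 and Kcnip3 are blue, whereas 4 of 6 probe sets of Kcnq1ot1 are grey.

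Members near the threshold were the following. Just inside it lay Kcna7, Kcnj13 and Kcnab2, with adjusted p of 0.0309, 0.0231 and 0.0220. Just outside it lay Kcnd1, Kcnn1 and Kcnt1, with adjusted p of 0.0576, 0.0839 and 0.0968 (limma). With the limit at the 99th percentile, Kcna7, Kcnj13, Kcnq5 and Kcnk7 were at 0.18, 0.39, 0.46 and 0.47 above it and did not pass. Of the 63 members that did not pass in the main setting, 6 had a mean above the limit, these 3 and Kcnma1, Kcnh5 and Kcnmb4os2.

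Differences between arrays in the members above background resembled those of other genes by count. Replicate 1 was the lowest array for 13 of the 21 members (61.9%) and for 69.4% of all 10570 genes above background, and replicate 3 the highest for 13 (61.9%) and for 64.3%. The median deviation from a gene's own mean was -0.17, 0.02 and 0.19 on replicates 1, 2 and 3 in the members, against -0.18, 0.02 and 0.16 in all genes above background. Most genes above background were thus lowest on replicate 1, and most were highest on replicate 3. All genes not above background had other median deviations, -0.07, 0.10 and 0.08, so the arrays did not differ by a common offset. The order of the arrays for Kcnj10, Kcnh2 or Kcnd3 is given as a value only. The median SD was 0.34 in the members and 0.24 in all genes above background, whose median level was also higher (7.77 against 6.51). None of the 21 had an SD above 1, whereas 27 of the 63 members not above background did (42.9%, against 42.1% of all genes not above background). Low signals on these arrays thus spread over several log2 units, and no order of the arrays is read from them.

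Genes that work with these channels or move potassium by other means were taken from a separate list of 42 genes, of which 33 were measured and 18 were above background (54.5%), a share near the 58.3% of all genes tested. All 7 measured genes of the astrocyte endfoot and of Kir4.1 scaffolds passed, among them the water channel gene Aqp4 at 11.87 ± 0.10, dystroglycan (Dag1) at 11.73 ± 0.23 and Mlc1 at 12.65 ± 0.11. Of 7 sodium-potassium pump genes measured (10 listed) 5 passed, including the beta subunit genes Atp1b1 at 12.16 ± 0.09 and Atp1b2 at 11.63 ± 0.21, while Atp1a4 and Fxyd7 did not. Atp1a4 was the only pump alpha subunit gene measured, so nothing is known here of the other alpha subunit genes. The sodium-potassium-chloride cotransporter gene Slc12a2 was at 9.54 ± 0.26 and the potassium-chloride cotransporter gene Slc12a4 at 8.67 ± 0.55, and the other 3 of 5 cotransporter genes did not pass. Of 5 potassium-permeable channel genes outside the Kcn symbols, 4 passed, namely the lysosomal channel gene Tmem175 at 7.58 ± 0.12, the trimeric channel genes Tmem38a and Tmem38b at 7.08 ± 0.13 and 7.51 ± 0.15, and the pacemaker channel gene Hcn2 at 4.95 ± 0.43.

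None of the 7 measured genes outside the Kcn symbols for partner subunits of voltage-gated and BK channels was above background, against 58.3% of all genes tested. Of the auxiliary genes with a Kcn symbol, 3 of 15 passed (Kcnmb4, Kcnip3 and Kcnab2). Kv4 channels bind the transmembrane peptidase relatives DPP6 and DPP10, and Dpp6 was at 3.55, 3.96 and 2.73 and Dpp10 at 1.64 ± 1.76. Amigo1 and Amigo2, the first a partner of Kv2 channels, were at 4.14 ± 0.40 and 1.84 ± 1.94. The BK gamma subunit genes Lrrc26, Lrrc38 and Lrrc52 were at 3.48 ± 0.41, 2.10 ± 0.72 and 3.39 ± 0.35. At an unadjusted p below 0.05 none of the 7 passed either (limma).

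**Figure D5:**
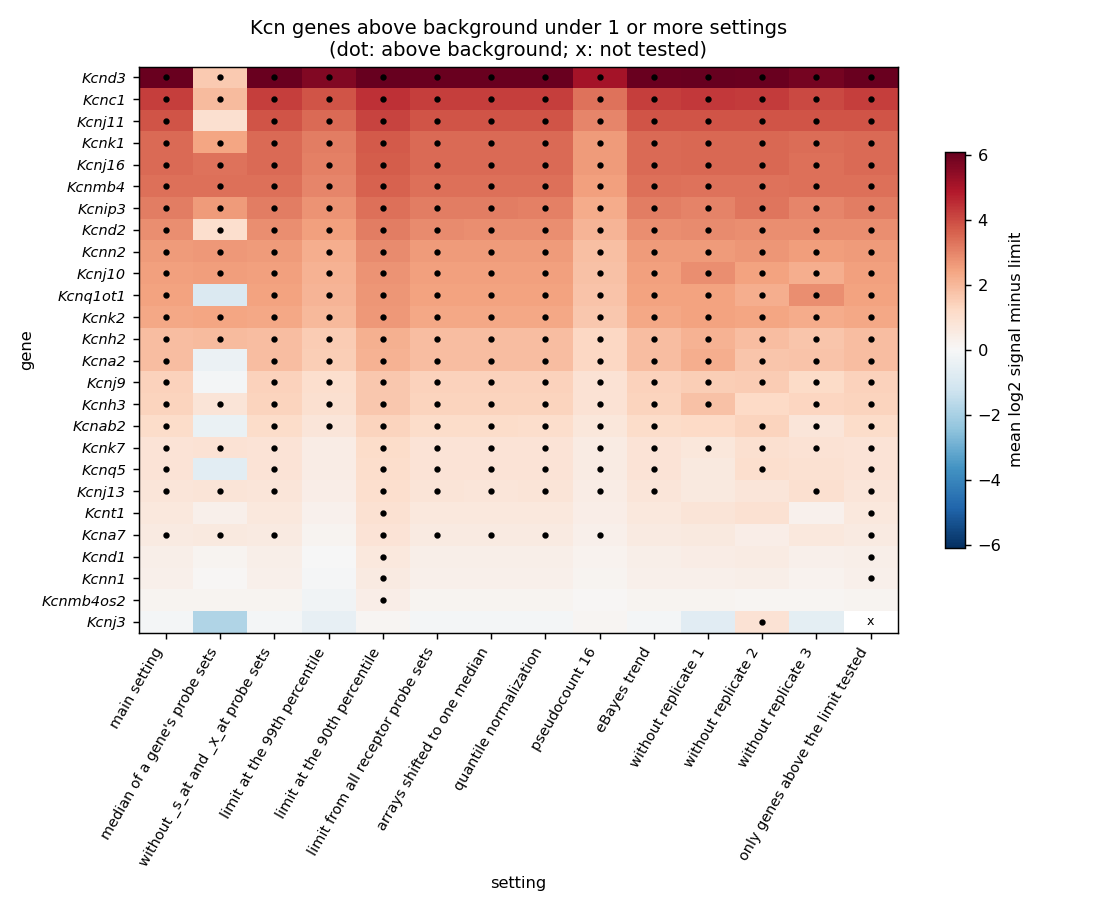
Mean log2 signal minus the limit (colour) for the 26 members above background under at least 1 setting, in the main setting and 13 alternatives; a dot marks a gene above background and x a gene not tested. Dots fill the row for 11 genes, and the lower rows, from Kcnt1 down except Kcna7, have dots in 1 or 2 columns.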

How the data were processed

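RNA labelled with biotin was hybridised to 3 arrays, and the deposited file holds a linear intensity for each of 45101 probe sets on each array, all above 0. GCOS 1.4 was used, per the submitters' processing notes, with settings and scaling not given in the sources used here. For every probe set the authors' intensity value was taken to log2 with no pseudocount. Gene names came from the platform annotation (34958 with 1 gene, 932 with several and left out, 9211 unnamed, 51 of them controls), and no member's symbol differed from RefSeq's. No 2 arrays held identical values in any row, and their log2 signals correlated over probe sets at 0.909 to 0.922.

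Background calls used limma 3.58.1 in R 4.3.3 (one-sample, one-sided, eBayes), fitted on all genes, and once more on all probe sets with 1 gene. In simulated data (18116 genes), 34% of genes placed 0.5 log2 units above the limit were called, 94% at 1 unit and 100% at 2. The simulation set the SD from the signal level alone. Real genes of like level differ in SD, so these shares may not hold for them. The precision is limited by the number of arrays.

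Members and lists were chosen with earlier results of these data known. Every member above background was named, with values on each array for these and for a set of genes known from astrocytes or neurons; a few others were named after their values were seen. Alternatives changed the probe set rule, the limit, the normalization, the pseudocount, the variance model, the filter and the replicates. Promoter windows came from RefSeq (GRCm38.p6).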

Additional observations from a re-analysis of the deposited data

How the results depend on the processing

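The count of 21 members above background ran from 15 to 25 over 13 alternatives and stayed within 1.5 times in each. The lowest was with the median over probe sets, where the Kcnj count was 3 in place of 5, and the highest with the limit at the 90th percentile. The calcium- or sodium-activated count was 3 in place of 1 with the limit at the 90th percentile, and 3 when only genes above the limit were tested, a choice that lowers adjusted p because it selects on the tested values. Of the 21 members, 11 passed under every alternative run and 10 lost the call under at least 1, and 5 other members gained it under at least 1. For the 8 called members with 1 probe set, the median rule left the signal unchanged and so could not test their calls. With the median of probe sets the difference from the limit was -0.37 for Kcna2, -0.40 for Kcnab2, -0.12 for Kcnj9, -0.89 for Kcnq1ot1 and -0.64 for Kcnq5. Leaving out 1 replicate gave differences from -0.69 to 0.88 for Kcnj3, the highest without replicate 2, and the cause was not tested. Kcnj3 was also above the limit, without passing, at 0.13 with the limit at the 90th percentile and at 0.10 with a pseudocount of 16. With the median of its probe sets Kcnj3 was at -1.83 from the limit. Shifting the arrays to one median moves signal and limit alike and so changed no call. No paired analysis was possible because all 3 arrays form 1 group. A gene within about 0.5 log2 units of the limit can go uncalled with 3 arrays, and so did Kcnt1 at 0.66 above it.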
